A study of Mus musculus with 9 samples.

Results

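BK channels are potassium channels of large conductance that open on membrane depolarisation and on a rise of calcium at the inner face of the membrane. The results below describe the genes of this channel in Merkel cells, epidermal mechanoreceptors that contact sensory nerve endings, and in basal keratinocytes, the proliferating layer from which the epidermis is renewed. The 7 genes were chosen by name, with earlier results of these data known. They are the pore-forming subunit Kcnma1, the β subunits Kcnmb1, Kcnmb2, Kcnmb3 and Kcnmb4, and the leucine-rich repeat γ subunits Lrrc26 and Lrrc52. Each has a single row in the table of 49671 Ensembl genes. All cells were taken at postnatal day 0 from epidermis of mice carrying the Sox2-GFP reporter, the control cells included. Merkel cells were sorted as GFP-positive (3 libraries) and basal keratinocytes as GFP-negative cells carrying SCA1 and CD49F (6 libraries). Sample numbers 1 to 3 in the titles each cover a Merkel library and a pair of basal ones, called first and second here, whose difference is not stated, nor whether a number is an animal or a pool. What p-values measure here is the spread between these numbers, which may be technical.

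In a BK channel copies of the α subunit, encoded by Kcnma1, form the pore, the voltage sensor and the intracellular calcium sensor. The β subunits are small membrane proteins that change calcium sensitivity and gating speed, and β2 carries an amino-terminal segment that inactivates the channel. The γ subunits let the channel open at more negative voltages, Lrrc26 most of all, without the need for a rise in calcium. In excitable cells BK channels sit close to voltage-gated calcium channels and end the calcium entry that drives vesicle release, and in Merkel cells they are known to carry a large part of the outward current.

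All 7 Merkel markers, among them Krt8, Krt18, Atoh1 and Sox2, were higher in Merkel libraries, with a summed level of 729.5 to 977.7 TPM (transcripts scaled to length and to a fixed library total) against 2.06 to 5.84 in basal libraries. Of 5 basal markers 4 were lower (Krt5, Krt14, Itga6 and Col17a1), yet the 5 still summed to 4517 to 5043 TPM in Merkel libraries, against 12720 to 17200 in basal ones. Krt14 was at 2187 ± 119.1 against 7731 ± 278.8 TPM (SD, n = 3). Whether keratinocyte RNA in the Merkel libraries adds to a member's level was not tested. Between 13011 and 13648 genes reached 1 TPM in a library. TPM keeps no read depth, so the reads behind a value are unknown and low values are the least precise. Mitochondrial and small RNA genes together held 40.6% to 46.1% of TPM in basal libraries, 45.7% and 43.1% in Merkel libraries 1 and 3, and 53.4% in Merkel library 2. Of other cells that express BK channels, the sensory neuron markers Nefl, Nefm, Scn10a and Prph were below 0.5 TPM in every library, and Tubb3 was higher in Merkel cells. Among pericyte markers Rgs5 was higher (2.46 ± 0.913 against 0.0483 ± 0.0382 TPM), and Pdgfrb and Abcc9, too low to be tested, had every Merkel library above every basal one, while Cspg4 made up most of the list's sum (10.75 ± 1.53 against 11.2 ± 0.806). By limma 1 of 2 tested pericyte markers was called (Rgs5, tested only through its Merkel values), 0 of 4 Schwann cell and 0 of 1 endothelial markers. Over all genes tested 6.79% were called higher and 5.27% lower. At an unadjusted limma p under 0.05, a limit for which no share of all genes is given here, 1 Schwann cell and 1 endothelial marker were higher. The pericyte list summed to 13.4 to 15.3 TPM in Merkel and 7.48 to 16.9 in basal libraries. The Schwann cell list summed to 43.9 to 61.4 and 39.97 to 58.99, and the endothelial list to 1.59 to 2.66 and 0.25 to 1.51. The part of these cells in the results was not tested.

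The 7 genes lie on 6 chromosomes of mm10. Kcnma1 (ENSMUSG00000063142.14) is the longest by far, at chromosome 14 from 23289431 to 24014491 on the minus strand, 725.1 kb with 38 annotated transcripts. The gene-level value rests on the annotation used for quantification, which is not given, and says nothing on which splice form was made. Kcnmb2 (chromosome 3, 31902507 to 32200180, plus strand) and Kcnmb3 (chromosome 3, 32471588 to 32492231, minus strand) share a chromosome. Kcnmb4 is at chromosome 10 from 116417861 to 116473878, Kcnmb1 at chromosome 11 from 33963013 to 33973641, Lrrc26 at chromosome 2 from 25289915 to 25291180 and Lrrc52 at chromosome 1 from 167445669 to 167466780. All 7 are annotated as protein-coding.

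The promoter windows of the 4 genes with appreciable transcript levels are shown because they differ in CG content. Each runs from 250 bases before the RefSeq start to 50 after it (build GRCm38.p6), written 5′ to 3′ on the gene's own strand, with every CG dinucleotide in capitals. The windows are chr14:24004156-24004455 (minus) for Kcnma1, chr3:31902453-31902752 (plus) for Kcnmb2, chr2:25289661-25289960 (plus) for Lrrc26 and chr10:116473474-116473773 (minus) for Kcnmb4.
Kcnma1: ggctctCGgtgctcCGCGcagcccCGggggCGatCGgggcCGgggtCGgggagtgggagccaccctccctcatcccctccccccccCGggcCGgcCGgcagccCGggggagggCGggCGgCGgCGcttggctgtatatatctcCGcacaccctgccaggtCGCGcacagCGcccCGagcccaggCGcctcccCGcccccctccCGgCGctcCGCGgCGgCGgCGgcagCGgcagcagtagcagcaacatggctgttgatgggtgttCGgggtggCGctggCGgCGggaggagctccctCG
Kcnmb2: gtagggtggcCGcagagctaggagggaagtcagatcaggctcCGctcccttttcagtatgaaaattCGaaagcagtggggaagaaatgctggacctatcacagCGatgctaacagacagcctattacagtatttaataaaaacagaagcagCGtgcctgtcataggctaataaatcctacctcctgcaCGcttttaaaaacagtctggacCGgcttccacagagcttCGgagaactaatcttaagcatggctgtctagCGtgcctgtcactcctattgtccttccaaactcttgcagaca
Lrrc26: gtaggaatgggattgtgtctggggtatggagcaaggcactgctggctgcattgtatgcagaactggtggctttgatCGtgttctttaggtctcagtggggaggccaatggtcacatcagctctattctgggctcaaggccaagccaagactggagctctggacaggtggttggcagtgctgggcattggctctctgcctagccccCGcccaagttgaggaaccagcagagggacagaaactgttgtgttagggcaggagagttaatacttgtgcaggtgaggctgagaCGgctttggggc
Kcnmb4: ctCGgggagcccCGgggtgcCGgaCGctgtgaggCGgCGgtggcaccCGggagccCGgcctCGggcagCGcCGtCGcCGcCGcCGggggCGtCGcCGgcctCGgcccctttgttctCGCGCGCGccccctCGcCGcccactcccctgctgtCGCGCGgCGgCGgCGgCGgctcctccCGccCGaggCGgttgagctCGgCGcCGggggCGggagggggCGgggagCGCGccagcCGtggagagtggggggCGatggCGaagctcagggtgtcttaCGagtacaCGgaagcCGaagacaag

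Kcnma1 and Kcnmb4 have dense CG windows, with 36 and 48 CG dinucleotides and a GC content of 78.0% and 79.0%. The Kcnmb2 window holds 9 (47.7% GC) and that of Lrrc26 3 (55.3% GC), against medians of 7 and 52.7% over 32851 windows of the same length. Of the 3 genes called higher below in Merkel cells, Kcnma1 lies far above that median of CG dinucleotides, Kcnmb2 just above and Lrrc26 below it, and Kcnmb4, present in both cell types, has the densest window. The RefSeq start coincides with an annotated GENCODE start for Kcnma1 and Kcnmb2 and lies 4 and 88 bases from one for Lrrc26 and Kcnmb4. The whole Kcnmb4 window lies within the opposite-strand gene Kcnmb4os2 (chromosome 10, 116473163 to 116475319). The E-box letters CAGCTG and CAGATG, the core that basic helix-loop-helix factors such as Atoh1 can bind, were searched on both strands of all 7 members' windows. CAGATG matched once, in the Kcnmb1 window (there as CATCTG, from base 271 of the window), and CAGCTG in no member's window. Over all windows 16.3% hold CAGCTG, 17.2% CAGATG and 30.6% either.

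The channel genes separated into 3 patterns. Kcnma1, Kcnmb2 and Lrrc26 were higher in Merkel cells and near 0 in basal keratinocytes. Kcnmb4 was present in both cell types. Kcnmb1, Kcnmb3 and Lrrc52 stayed below 0.5 TPM in every library. A gene was tested where at least 3 of 6 values (1 Merkel value and 1 averaged basal value for each number) reached 1 TPM, and was called at a limma adjusted p under 0.05 with a fold change of 2 or more. Of the 7 genes 4 were tested, 3 were called higher and 0 lower, and over all 13822 genes tested 6.79% were called higher, 5.27% lower and 12.1% in either direction. In sorted bulk samples fewer cells of a type and less RNA per cell cannot be told apart. No tested member had a negative difference at an unadjusted limma p under 0.05. The members low in basal keratinocytes passed the filter only because their Merkel values did, so the 3 of 4 is no share of the channel's genes. Of the 7 genes 4 had every Merkel library above every basal library (Kcnma1, Kcnmb1, Kcnmb2 and Lrrc26), of which 3 were tested, and 11.7% of all genes tested did.

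**Figure D1:**
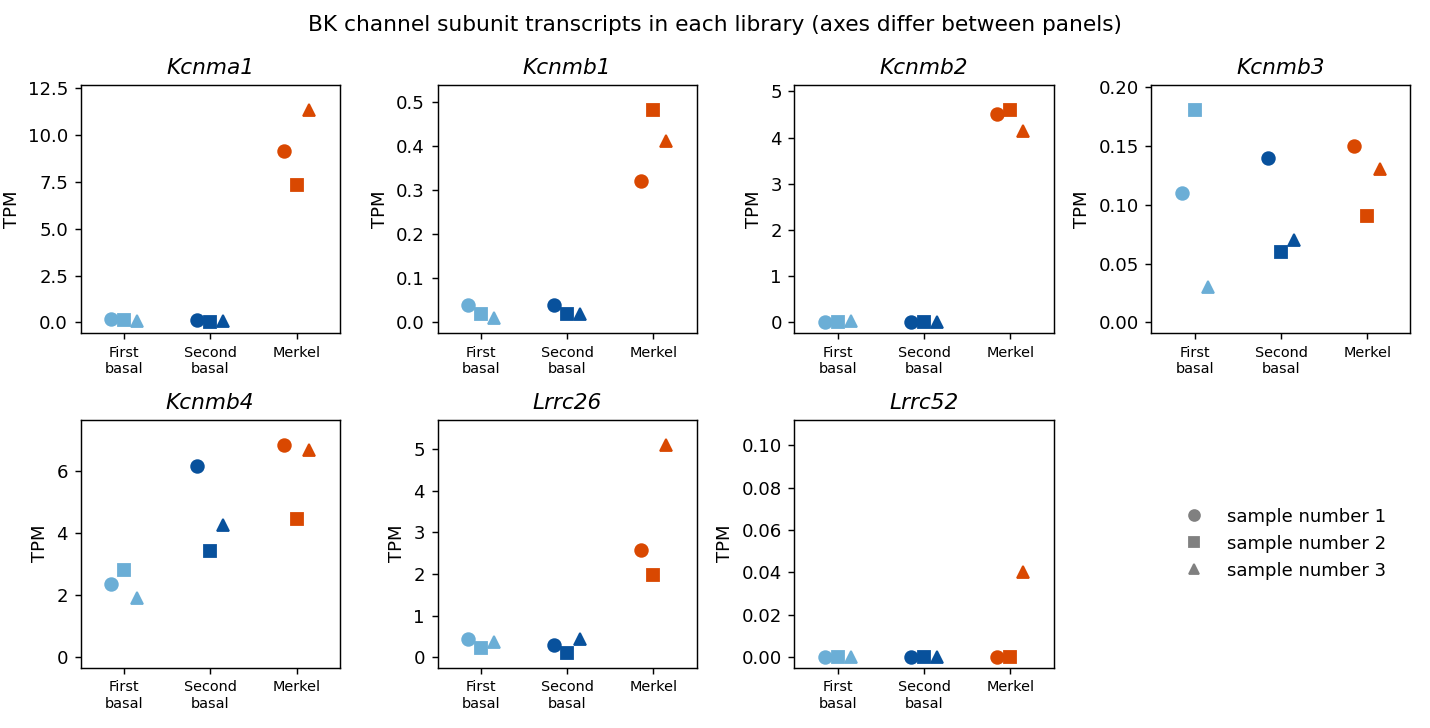
Level of each BK channel gene in each library, in TPM on a linear axis that differs between panels, for the first basal, second basal and Merkel libraries. Points are single libraries and their shape gives the sample number. Kcnma1, Kcnmb1, Kcnmb2 and Lrrc26 are higher in all Merkel libraries, Kcnmb4 overlaps between groups, and Kcnmb3 and Lrrc52 are near 0 throughout.

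The pore gene Kcnma1 was at 9.15, 7.36 and 11.32 TPM in Merkel libraries 1, 2 and 3. It was at 0.19, 0.15 and 0.07 TPM in the first basal libraries of numbers 1, 2 and 3 and at 0.11, 0.03 and 0.06 in the second. No basal library came near the lowest Merkel library, and the lowest Merkel value was in number 2. Merkel cells averaged 9.28 ± 1.98 TPM and basal keratinocytes 0.102 ± 0.0437 (SD, n = 3 numbers each). On the scale of log2(TPM + 1) the difference was 3.21 ± 0.16 (SE, limma adjusted p = 1.4e-06), and it was 3.14, 2.94 and 3.53 within numbers 1, 2 and 3. That difference ranked 126 among the 13822 genes tested. The added 1 TPM understates the change of a gene near 0: with 0.1 TPM added it was 5.57, and the ratio of mean TPM was 91.2 (67.9 against the first and 139.2 against the second basal libraries), resting on basal values written with 2 decimals. The one overlapping annotation, the opposite-strand Gm29626, was listed at 0 in all 9 libraries.

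The β2 gene Kcnmb2, whose product inactivates the channel, had the least varied level among Merkel libraries. It was at 4.52, 4.59 and 4.15 TPM in Merkel libraries 1, 2 and 3. Among basal libraries it was listed at 0 in both libraries of numbers 1 and 2, and at 0.04 and 0.02 TPM in the first and second of number 3. The Merkel libraries thus lay in a narrow band far above all basal ones, with a mean of 4.42 ± 0.236 TPM (SD, n = 3) and a difference of 2.42 ± 0.12 on the log2(TPM + 1) scale (SE, limma adjusted p = 1.2e-06). No ratio is given against values of 0. The spread depended on the scaling: as deposited the coefficient of variation over Merkel libraries was 5.35% for Kcnmb2 and 21.4% for Kcnma1, and after mitochondrial and small RNA genes were removed and the rest rescaled it was 15.2% and 12.1%.

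Lrrc26, the γ1 subunit known from secretory epithelia, was at 2.58, 1.98 and 5.09 TPM in Merkel libraries 1, 2 and 3. It was at 0.44, 0.21 and 0.36 TPM in the first basal libraries and at 0.29, 0.09 and 0.44 in the second. All Merkel libraries were above all basal ones, and Merkel library 3 stood apart at the top. The means were 3.22 ± 1.65 and 0.305 ± 0.135 TPM (SD, n = 3), a log2(TPM + 1) difference of 1.63 ± 0.24 (SE, limma adjusted p = 0.00092). Without Merkel library 3 the difference was 1.33 (adjusted p = 0.0012). Among markers of secretory gland epithelium, the list that could share this gene, Krt7 was higher in Merkel libraries (52.6 ± 15.2 against 3.99 ± 1.20 TPM), while Lyz1 and Bpifa2 were at 0 in all libraries and Aqp5, Muc5b and Foxi1 were below 0.5 TPM in all. The list summed to 37.7 to 68.0 TPM in Merkel and 2.07 to 5.95 in basal libraries, and its part in the Lrrc26 result was not tested.

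Kcnmb4, the β4 subunit that is the main form in neurons, was the BK gene with the highest level in basal keratinocytes. It was at 6.85, 4.46 and 6.69 TPM in Merkel libraries 1, 2 and 3, at 2.36, 2.81 and 1.92 in the first basal libraries, and at 6.16, 3.42 and 4.27 in the second. The Merkel libraries were all above the first basal libraries and overlapped the second. The means were 6.0 ± 1.34 TPM for Merkel and 3.49 ± 0.667 for basal values (SD, n = 3). The log2(TPM + 1) difference of 0.69 ± 0.18 (SE, limma adjusted p = 0.013) did not reach a 2-fold change, and Kcnmb4 was not called. The adjusted p lay above 0.05 without Merkel replicate 3 (0.052) or Basal replicate 3 (0.053). These fits did not pair the sample numbers. With the number as a block the limma adjusted p was 0.0015 at the same difference of 0.69.

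The choice of basal library changed the call of Kcnmb4 and of none of the other 3 genes tested. Against the first basal libraries alone its difference was 1.05 ± 0.19 (SE, limma adjusted p = 0.0028) and it was called higher, with 7.46% of all tested genes called higher in that fit. Against the second alone it was 0.33 ± 0.21 (limma adjusted p = 0.26), with 6.46% of genes called higher. Between the basal libraries themselves Kcnmb4 was higher in the second of every number, by 1.09, 0.21 and 0.85 on the log2 scale, as were 36.7% of all genes tested. That difference of 0.72 ± 0.19 (SE) did not pass adjustment (limma adjusted p = 0.074), where 3.96% of genes were called. The same difference was -0.09 for Kcnma1, -0.01 for Kcnmb2 and -0.08 for Lrrc26 (limma adjusted p = 0.39, 0.92 and 0.56).

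**Figure D2:**
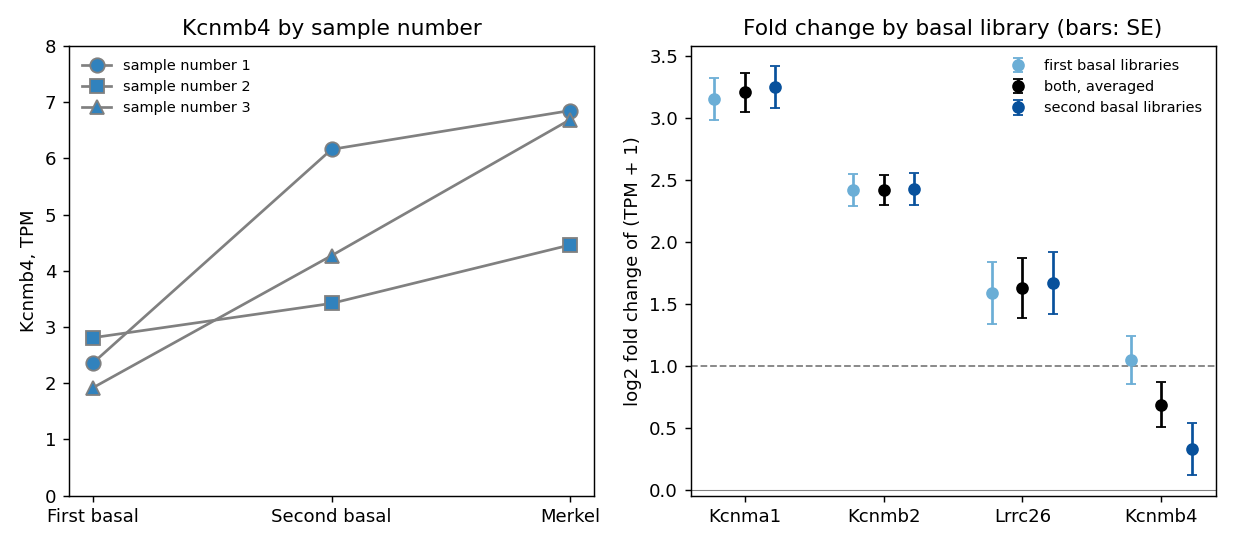
Left, Kcnmb4 level in TPM in the first basal, second basal and Merkel library of each sample number, joined by lines. Right, log2 fold change of TPM + 1 with its SE for the 4 tested genes against the first, both or second basal libraries, with a dashed line at a 2-fold change. Kcnmb4 is the gene whose value moves with the basal library, from 1.05 to 0.33.

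Markers of some other cell types also differed between first and second basal libraries. The 6 melanocyte markers summed to 15.8 to 34.3 TPM in first basal, 104.6 to 151.6 in second basal and 150.4 to 210.8 in Merkel libraries. Of 6 tested 5 were called higher in Merkel cells, against 6.79% of all genes tested. Dct, the most abundant, was at 63.3 to 87.8 TPM in Merkel, 5.54 to 14.7 in first basal and 47.0 to 68.3 in second basal libraries. Of the 8 fibroblast and dermal papilla markers 6 of 7 tested were called higher in Merkel cells, against the same 6.79%. That list was not uniform between basal libraries. Dcn, the most abundant and not called, was at 33.1 to 98.7 TPM in first and 94.2 to 242.1 in second basal libraries, and Col1a2 at 1.75 to 2.5 and 6.63 to 9.20. Col1a1, Col3a1, Pdgfra and Corin overlapped between them. The 5 immune markers, led by Ptprc, had the opposite order, at 37.8 to 126.8 TPM in first basal, 3.32 to 9.03 in second basal and 5.58 to 11.3 in Merkel libraries. The part of these cells in the Kcnmb4 values was not tested. The opposite-strand transcript Kcnmb4os2 overlaps Kcnmb4. Its level was 1.69 ± 0.452 TPM for Merkel and 0.843 ± 0.232 for basal values (SD, n = 3), and it was not called. The kit keeps strand, but the strand setting of the quantification is not given in the sources used here, so reads could be divided between the pair.

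The remaining 3 genes were too low to be tested. Kcnmb1, the β1 subunit of smooth muscle, was at 0.32, 0.48 and 0.41 TPM in Merkel libraries. Its basal range was 0.01 to 0.04 TPM (median 0.02). Every Merkel library was thus above every basal one at a level under 0.5 TPM. With no filter on low values the log2(TPM + 1) difference was 0.45 ± 0.05 (SE, limma adjusted p = 0.0021). A gene under 0.5 TPM cannot reach 2-fold on that scale. The ratio of mean TPM was 16.1, resting on basal values written with 2 decimals. Kcnmb1 lies within Kcnip1 on the opposite strand, which showed a like pattern at 0.383 ± 0.0764 against 0.025 ± 0.0312 TPM (SD, n = 3), so reads of the pair may not be separable. The smooth muscle markers Myh11, Cnn1, Des, Lmod1 and Myocd stayed below 0.5 TPM in every library. Acta2 (2.53 ± 0.875 against 0.838 ± 0.0889 TPM) and Tagln (1.28 ± 0.193 against 0.595 ± 0.115) had every Merkel library above every basal one, as Kcnmb1 did, and fell short of 2-fold on the log2(TPM + 1) scale. Smtn, the most abundant, had the opposite order (5.30 ± 0.27 against 9.68 ± 0.9). The part of such cells in the Kcnmb1 values was not tested. Kcnmb3 was at 0.15, 0.09 and 0.13 TPM in the Merkel libraries, within the basal range of 0.03 to 0.18. Lrrc52, the γ2 subunit known from testis, was listed at 0 in 8 of 9 libraries and at 0.04 TPM in Merkel library 3.

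TPM is per transcript length, so levels of the subunits can be set side by side. In Merkel cells the order was Kcnma1, Kcnmb4, Kcnmb2, Lrrc26, Kcnmb1, Kcnmb3 and Lrrc52. Kcnma1 was the highest in each Merkel library, and its range did not overlap that of Kcnmb4. Kcnmb4 and Kcnmb2 overlapped, with Kcnmb2 above Kcnmb4 in number 2, as did Kcnmb2 and Lrrc26, with Lrrc26 above Kcnmb2 in number 3. In basal keratinocytes Kcnmb4 was far above Lrrc26, which was followed by Kcnma1 and Kcnmb3 at overlapping levels.

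The 6 auxiliary genes together were at 14.42, 11.6 and 16.51 TPM in Merkel libraries 1, 2 and 3, or 1.58, 1.58 and 1.46 TPM for each TPM of Kcnma1. That ratio was steadier than its parts. Kcnmb4 made up 47.5%, 38.4% and 40.5% of the auxiliary total, Kcnmb2 31.3%, 39.6% and 25.1%, and Lrrc26 17.9%, 17.1% and 30.8%. No single auxiliary gene held most of the total in any Merkel library. Basal keratinocytes had a different make-up, with Kcnmb4 at 80.0% to 95.3% (median 87.9%) and Lrrc26 at 2.51% to 15.3% of an auxiliary total of 2.36 to 6.63 TPM. There the auxiliary total was 15.5 to 119.7 TPM for each TPM of Kcnma1, because Kcnma1 itself was near 0. These are ratios of transcripts and not of proteins, and they were not tested.

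**Figure D3:**
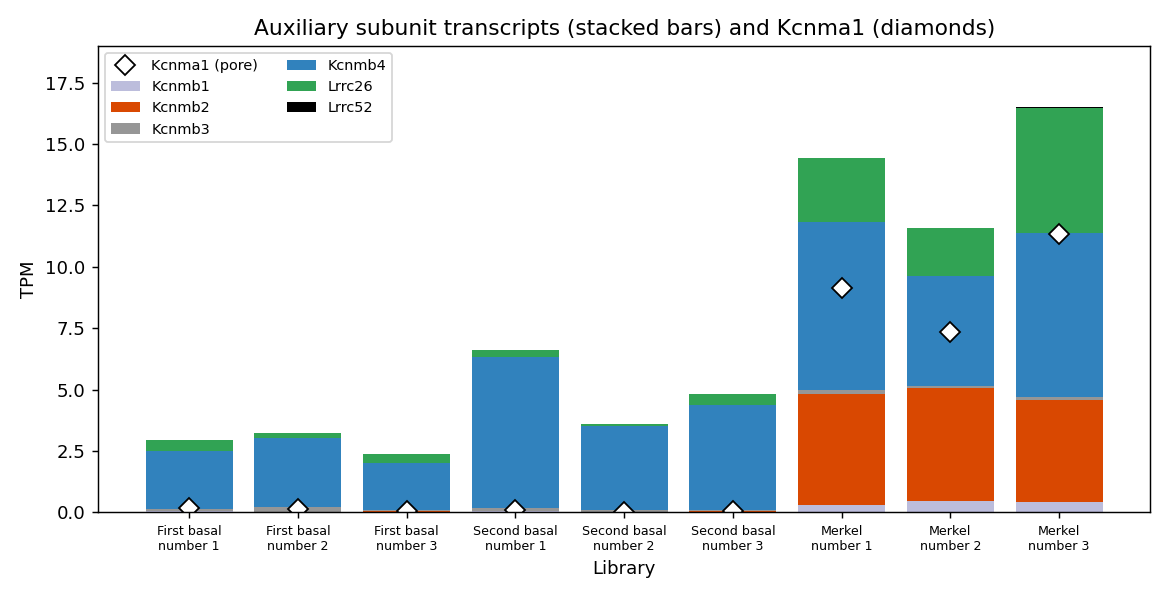
Stacked bars give the TPM of the 6 auxiliary subunit genes in each of the 9 libraries, and diamonds the TPM of Kcnma1. Basal bars are made up mostly of Kcnmb4 with Kcnma1 near 0, and Merkel bars hold Kcnmb4, Kcnmb2 and Lrrc26 with Kcnma1 at 7.36 to 11.32 TPM.

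Among 77 pore-forming potassium channel genes 24 were tested, and 42 stayed under 1 TPM in every library. By limma 11 were called higher in Merkel cells and 0 lower. At an unadjusted limma p under 0.05, a limit for which no share of all genes is given here, 15 were higher and 4 lower. Those 4 (Kcnk6, Kcnj15, Kcnn4 and Kcnj13) also had a limma adjusted p under 0.05 (0.0008 to 0.0075). They fell short of 2-fold on the log2(TPM + 1) scale. Over all genes tested the shares called, by adjusted p and 2-fold, were 6.79% higher and 5.27% lower. Of the 11, 10 were under 1 TPM in every basal library, Kcnma1 among them, and passed the filter through their Merkel values. So did Kcnh2, which was at 1.03 TPM in the second basal library of number 2 and under 1 TPM in every averaged basal value. The count is thus no share of these channels. By mean TPM, Kcnma1 ranked 5 in Merkel cells and 38 in basal keratinocytes. It made up 6.29% to 7.75% of their summed TPM in each Merkel library, against 0.0431% to 0.313% in basal ones. The 3 with the highest level in Merkel cells were Kcnv1, which encodes a subunit that modifies other voltage-gated channels (26.3 ± 4.25 TPM), the A-type channel gene Kcna4 (12.7 ± 1.31) and Kcnk7 of the K2P family (11.7 ± 1.45). Kcnv1 and Kcna4, like Kcnma1, were low in basal keratinocytes (0.327 and 0.0383 TPM), whereas Kcnk7 was at 11.6 ± 2.49 TPM there and was not called.

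**Figure D4:**
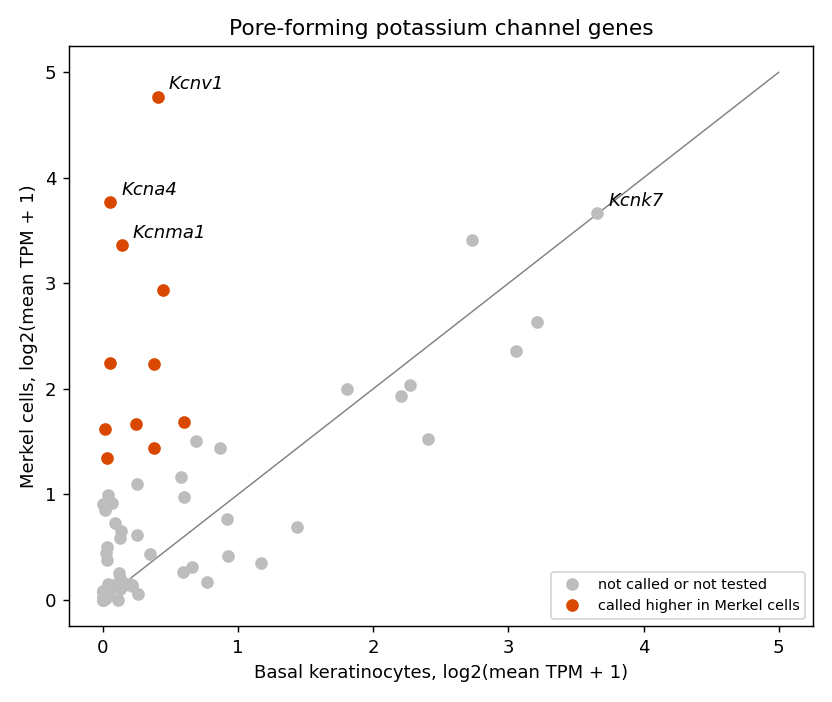
Each point is 1 of 77 pore-forming potassium channel genes, by log2(mean TPM + 1) in basal keratinocytes (x) and Merkel cells (y), with a line of equal level. Orange points were called higher in Merkel cells. Kcnma1 lies with Kcnv1 and Kcna4 on the Merkel side, and Kcnk7 on the line.

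The related potassium channel genes Kcnn1, Kcnn2, Kcnn3, Kcnn4, Kcnt1, Kcnt2 and Kcnu1 were less abundant than Kcnma1 in Merkel cells. Of these 7 genes 2 were tested, Kcnn1 and Kcnn4, and 0 were called, though both had a limma adjusted p under 0.05. Kcnn4, the intermediate-conductance channel, was at 3.63, 2.12 and 2.84 TPM in the first basal libraries, at 0.33, 0.97 and 0.36 in the second, and at 0.67, 0.41 and 0.76 in Merkel libraries. Its first basal libraries stood above all the rest, and the second overlapped the Merkel libraries. Its log2(TPM + 1) difference was -0.59 ± 0.13 (limma adjusted p = 0.0075) and that of the small-conductance gene Kcnn1 0.59 ± 0.15 (adjusted p = 0.011), both short of 2-fold.  The γ3 and γ4 genes Lrrc55 and Lrrc38 stayed below 0.5 TPM, Lrrc38 at 0 in all libraries.

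A further 6 lists hold genes that supply, release, remove or buffer calcium, and genes for BK channel binding partners, trafficking factors, kinases, phosphatases and cyclases. Over these and the lists of the last paragraph, 8 in all with 95 genes, 11 of 56 tested members were called higher and 2 lower, with a median log2(TPM + 1) difference of 0.11 against -0.15 over all genes tested. The shares over all genes tested were 6.79% higher and 5.27% lower. Of the 11, 5 were under 1 TPM in every basal library (Cacna1b, Cacna1e, Cacna2d1, Atp2b3 and Slc8a2) and were tested only through their Merkel values. Cacna1a, Cacna2d2, Atp2a3 and Gucy1b1 reached 1 TPM in some averaged basal values, but in too few to be tested without their Merkel values. The filter thus shaped the 11 of 56, which is no share of these lists.

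Of 10 pore subunits 5 were tested and 3 were called higher: Cacna1a (P/Q-type, 1.63 ± 0.34), Cacna1b (N-type, 1.40 ± 0.17) and Cacna1e (R-type, 1.10 ± 0.13), as log2(TPM + 1) differences with their SE. Cacna1a had the highest level of them, at 6.53, 4.93 and 8.52 TPM in Merkel libraries against a basal range of 0.42 to 3.43. The L-type gene Cacna1c was at 0.83 ± 0.12 and was not called, and Cacna1d did not pass the filter, at 0.28 to 0.42 TPM in Merkel, 1.29 to 2.01 in first basal and 0.21 to 0.33 in second basal libraries. Cacna1b was at 0.33 TPM in 1 basal library and at 0 to 0.05 in the rest. Of 8 auxiliary subunits 5 were tested and 2 were called higher, Cacna2d1 at 18.2 ± 3.17 against 0.115 ± 0.04 TPM and Cacna2d2 at 3.67 ± 0.853 against 1.13 ± 0.345. Cacnb2 had the opposite order, at 0.327 ± 0.0945 against 1.52 ± 0.189 TPM (log2 difference -0.82 ± 0.14, limma adjusted p = 0.0017), short of 2-fold on that scale. Cacnb3, the most abundant of the list, was at 24.3 ± 3.99 against 24.2 ± 1.57 TPM. Over all genes tested 6.79% were called higher and 5.27% lower. At an unadjusted limma p under 0.05, 5 pore genes were higher and 0 lower, and 3 auxiliary genes higher and 1 lower. No share of all genes is given here for that limit. Cacna1b, Cacna1c, Cacna1e, Cacna1g and Cacna2d1 had averaged basal values under 1 TPM and were tested only through their Merkel values. Cacna1a and Cacna2d2 reached 1 TPM in some averaged basal values, but in too few to be tested without their Merkel values. With no filter Cacna1d was at -0.46 ± 0.09 (SE, limma adjusted p = 0.012). The filter thus shaped these counts, and they are no share of the channel genes.

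Genes of calcium handling were called in both directions, as were 6.79% of all genes tested (higher) and 5.27% (lower). Among release and store genes, 1 of 10 tested was higher, the store pump Atp2a3 (4.49 ± 0.672 against 0.987 ± 0.198 TPM), and 1 lower, the inositol trisphosphate receptor Itpr2 (9.82 ± 1.64 against 21.95 ± 0.909). Ryanodine receptors Ryr1, Ryr2 and Ryr3 stayed below 0.5 TPM in all libraries. Of 8 extrusion and buffering genes tested 3 were higher, the sodium-calcium exchangers Slc8a1 (34.0 ± 5.39 against 6.80 ± 2.08 TPM) and Slc8a2 (3.40 ± 0.783 against 0.215 ± 0.0265) and the plasma membrane pump Atp2b3 (2.03 ± 0.345 against 0.0117 ± 0.0126). The related pump Atp2b4 was lower (23.1 ± 0.281 against 51.2 ± 1.11 TPM). The calls of Itpr2 and Atp2b4 were lost with median-ratio scaling (-0.92 and -0.93) and quantile normalization (-0.92 and -0.93), and that of Itpr2 also against the second basal libraries alone (-0.95).

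Of 10 tested genes for binding partners and trafficking factors 0 were called by limma, where 6.79% of all genes tested were called higher and 5.27% lower. At an unadjusted limma p under 0.05, a limit for which no share of all genes is given here, 2 were higher and 2 lower. Crbn, which holds BK channels back from the surface, was at 18.4 ± 2.82 against 18.3 ± 1.52 TPM (Merkel first). Fmr1, whose product binds β4, was at 21.9 ± 2.17 against 33.1 ± 4.34 TPM (-0.57, limma adjusted p = 0.0099), short of 2-fold. Of 16 tested kinase, phosphatase and cyclase genes 2 were called higher, the protein kinase C gene Prkcb (24.2 ± 3.18 against 4.96 ± 4.42 TPM) and Gucy1b1 (8.28 ± 2.70 against 1.19 ± 0.329), a subunit of the nitric oxide receptor that makes cyclic GMP. One basal library held much of the basal Prkcb mean, at 15.04 TPM against 0.54 to 5.07 in the rest.

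By Pearson correlation of log2(TPM + 1) with Kcnma1 over the 9 libraries, the 5 most alike of 12469 tested protein-coding genes were Nsg2 (0.9995), Rimbp2 (0.9993), Uchl1 (0.9992), Cnpy1 (0.9991) and Gc (0.9990). Since the libraries form 2 clusters, the coefficient mostly restates the difference between cell types, and 264 genes exceeded 0.99. Nsg2, a vesicle protein of neurons, was at 12.1, 9.83 and 15.25 TPM in Merkel libraries, and Rimbp2, which tethers calcium channels at release sites, at 6.19, 5.03 and 7.64. Among the channel's own genes the coefficient was 0.9927 for Kcnmb2, 0.9640 for Lrrc26 and 0.6646 for Kcnmb4.

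**Figure D5:**
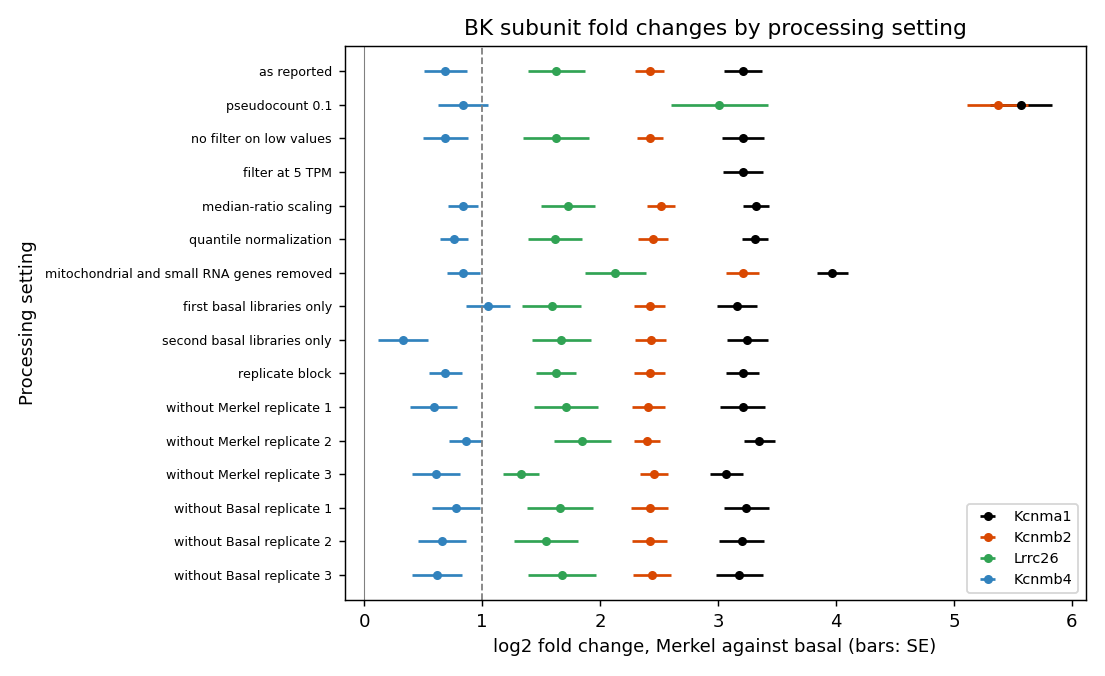
log2 fold change of the 4 tested BK genes (x, with SE) under each processing setting (y), with a dashed line at a 2-fold change. Kcnma1, Kcnmb2 and Lrrc26 stay to the right of the line wherever they were tested, and Kcnmb4 crosses it only against the first basal libraries, at 1.05. A filter at 5 TPM leaves Kcnma1 as the one tested.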

How the data were processed

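Total RNA libraries made with a strand-keeping kit and sequenced as 125-base pairs were processed with Trimmomatic, STAR and RSEM on mm10, per the submitters' processing notes. Annotation, strand option and versions: not given in the sources used here. Values deposited by the authors are TPM per gene. GENCODE M21 (GRCm38, the build of mm10) supplied gene names and positions, matched without version suffix for 49412 of 49671 identifiers. The version of the Kcnma1 identifier in the table differs from that in M21. Promoter windows come from RefSeq (GRCm38.p6), where all 7 members matched.

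The whole table was fitted in R 4.3.3 by limma 3.58.1, its prior variance following mean level, on log2(TPM + 1), two-sided, with Benjamini-Hochberg adjustment. First and second basal libraries were averaged per number after the log. A gene was tested at 1 TPM or more in at least 3 of 6 values, which fixed the genes tested in all alternatives save those on the filter. Second and first basal libraries were compared with the number as a block. The fit was tested on simulated data without pairing. The changed genes there had higher mean levels than Kcnma1, Kcnmb2 and Lrrc26, so that test does not cover these 3 genes. Tables and plots used Python 3.11.15, pandas 2.3.3 and matplotlib 3.10.9. Means ± SD are over 3 numbers, the basal value being the mean TPM of its libraries.

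Same-numbered Merkel and basal values deviated together from their group means (r = 0.385, 0.357 and 0.202 across genes), so the numbers pair the samples. Between unlike numbers r was -0.35 to 0.0591. The reported Merkel against basal fit did not use this pairing. The replicate block was tried, as were other pseudocounts, filters, scalings, basal libraries and leaving out each replicate.

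The members and the lists of related genes and markers were chosen with earlier results of these data known. Named genes are the members, the called genes of each related list (at most 3, by adjusted p, or any where a count is 5 or fewer), the most abundant and defining markers of other cell types, the 5 genes most like Kcnma1 and the 3 potassium channel genes highest in Merkel cells. Tagln, Pdgfrb, Abcc9, Cacnb2, Cacnb3, Cacna1c, Cacna1d, Crbn, Fmr1 and the ryanodine receptors were added after their values were seen.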

Additional observations from a re-analysis of the deposited data

Results flagged for a closer look

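Of 19 members and called related genes checked over the 6 basal libraries, 2 had a basal library far above the others; chance alone marks about 1 in 20 such groups. Prkcb was at 15.04 TPM in the first basal library of number 2 and at 0.54 to 5.07 in the other basal libraries. Cacna1b was at 0.33 TPM in the first basal library of number 1 and at 0 to 0.05 in the others. No member was marked.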

How the results depend on the processing

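In the 15 alternatives the calls of Kcnma1, Kcnmb2 and Lrrc26 held wherever they were tested, with log2 fold changes of 3.07 to 5.57, 2.40 to 5.37 and 1.33 to 3.01. With the sample number as a replicate block they were 3.21, 2.42 and 1.63, Kcnmb4 was at 0.69 (limma adjusted p = 0.0015), and no call of a member changed. Kcnmb4 was called only against the first basal libraries (1.05) and ranged from 0.33 to 1.05. The number of members called higher was 3, except 4 against the first basal libraries and 1 with a filter at 5 TPM, which left fewer genes tested. That filter also reduced the genes called over the whole table to 486 higher and 449 lower, from 938 and 729, and the related genes called higher from 11 to 4. With 0.1 TPM added 1281 genes were called lower, and with median-ratio scaling 454, which moved the median of all genes tested from -0.15 to 0.01. The 2 related genes called lower became 0 with median-ratio scaling or quantile normalization, 5 against the first basal libraries and 1 against the second; the cause was not tested. Removal of mitochondrial and small RNA genes raised the Kcnma1 value to 3.97. Read depth is unknown, which limits every statement on genes below 1 TPM.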
